A study of Mus musculus with 10 samples.

Results

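The proteasome genes were read on liver arrays of lactating mice on 2 diets. Members were the genes whose only symbol on a probe set begins with Psma, Psmb, Psmc, Psmd, Psme, Psmf or Psmg, each read at whichever of its probe sets was brightest on average. A probe set is a group of short probes that are read together as 1 value on each array. This gave 49 genes of the 18193 named on the array, with 103 of the 45037 probe sets. Psme2 shares its probe set with a second symbol and is not analysed here.

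Both groups were QSi5 mice that ate their diet from pregnancy until peak lactation, and liver RNA of each mouse went on an array of its own. The HGI group (5 mice) had a diet of high glycaemic index in which glucose made up 51.4% of the weight, at 15.6 MJ gross energy in each kg. The LGI group (5 mice) had 51.4% of a starch (Hi-Maze) in its place and 16.3 MJ in each kg. The labels give a positive energy balance for HGI and a negative one for LGI, so diet and energy balance cannot be told apart. Values are log2 expression, and differences are HGI minus LGI. The comparison asks how the carbohydrate of the diet relates to liver transcripts. The mice are separate animals, and their age is not given. All 9 hepatocyte markers were bright, with means between 12.65 and 14.69 log2. The arrays read whole liver, in which fewer cells of a type and less RNA per cell cannot be told apart.

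The proteasome breaks down proteins that carry chains of ubiquitin. Its 20S core is a barrel of alpha rings, which gate the entrance, and beta rings, which hold the cutting sites. The 19S cap has a base, whose ATPases unfold the substrate and thread it into the core, and a lid, which removes the ubiquitin. In immune cells, and in other cells under interferon, the cutting subunits are replaced by those of the immunoproteasome, which favours peptides for antigen presentation. Assembly factors build the particle and leave it. In liver this pathway takes away short-lived enzymes and damaged proteins.

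No proteasome gene passed the test, whose threshold was an adjusted p under 0.05. Of the 49 members, 45 had a difference below 0 and 4 above 0, with a median of -0.18 and a range from -0.37 to 0.09 log2. The median over all 45037 probe sets was -0.02, with 55.8% below 0. By limma with Benjamini-Hochberg adjustment over all probe sets, 0 of 49 members had an adjusted p under 0.05, where 0.0644% of all probe sets did, and the smallest member value was 0.447. At an unadjusted p under 0.05 there were 12 members by limma (24.5%), all lower in HGI, where 4.78% of all probe sets were lower and 2.76% higher on that rule. The unmoderated test also gave 12 at that level and 0 after adjustment. The arrays did not overlap between the diets in 6 members (12.2%), all lower in HGI, against 1.20% of all probe sets lower and 0.475% higher. Of all named genes at their brightest probe set, 1.67% were lower without overlap. These 6 were Psma7, Psmb6, Psmc3, Psmd6, Psmd13 and Psme3ip1. At the next brightest probe sets of Psma7, Psmd6 and Psmd13 the diets did overlap, while Psmb6, Psmc3 and Psme3ip1 have 1 probe set each.

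**Figure D1:**
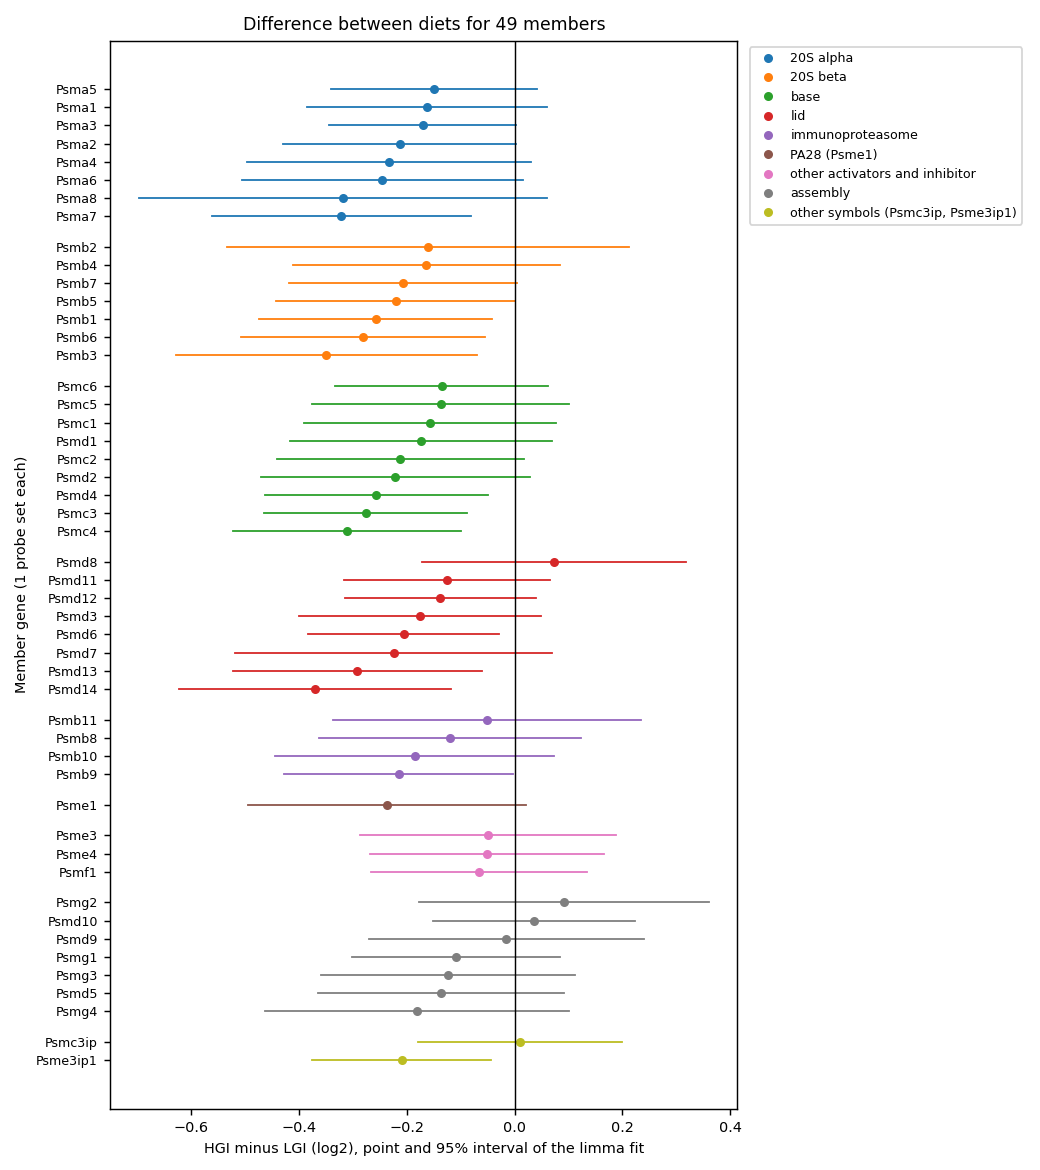
Difference between the diets (HGI minus LGI, log2, x axis) for each of the 49 members (y axis), coloured by class, with the 95% interval of the limma fit over 5 arrays per diet. All members of the 20S core and the base lie below 0, Psmd8 is the only lid gene above 0, and the assembly factors spread around 0 from -0.18 to 0.09.

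Array HGI 1 was lowest of all 10 arrays in 42 of the 49 members, and LGI 4 was highest in 22. HGI 1 was also lowest at 22.1% of all probe sets and at 59.0% of the 2949 named genes whose mean reached 8 log2, a level that 37 of the members reach. LGI 4 was highest at 12.9% of all probe sets and 21.5% of these bright genes, against 44.9% of the members and 51.4% of the bright members. That bright group was set up after seeing the data. Its median difference was -0.06, with 64.2% of genes below 0 and 12.8% lower at an unadjusted p under 0.05. The 37 bright members had a median of -0.21, with 36 below 0 and 27.0% lower at an unadjusted p under 0.05. Without overlap between the diets, 4.00% of the bright genes and 13.5% of the bright members were lower in HGI. Without HGI 1 the median was 0.00 over the bright genes and -0.01 over all named genes. That of all 49 members, bright or not, was -0.11 with 43 below 0. Without LGI 4 the member median was -0.16, and without both arrays it was -0.08 with 42 below 0 and 3 at an unadjusted p under 0.05, where 9.48% of all probe sets had one. The spread over probe sets was smallest in HGI 1 (SD 2.16 log2, against 2.26 to 2.31 in the other arrays), and its part in the result was not tested beyond these values. For RNA quality, the Gapdh control probe sets at the 3' end exceeded those at the 5' end by 0.64 log2 in HGI 1 and 0.87 in LGI 4. The range over the arrays was from 0.29 to 0.99. For the Actb controls the excess was 1.89 in HGI 1 and 2.27 in LGI 4, the highest of all arrays, in a range from 1.25. The part of RNA quality in the result was not tested.

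Summaries by array show where the groups part. As the median deviation of the 32 core, base and lid genes from their own means, the values were -0.38, 0.02, -0.14, 0.02 and -0.03 in HGI 1 to 5 and 0.03, 0.13, 0.03, 0.21 and 0.08 in LGI 1 to 5. HGI 1 is far below the rest, and the other HGI arrays lie between -0.14 and 0.02, below all LGI arrays. The groups do not overlap in this summary, with HGI 2 (0.02) and LGI 3 (0.03) the nearest. For the bright named genes the same summary was -0.29, 0.00, 0.02, 0.06 and 0.04 in HGI 1 to 5 and 0.01, 0.06, 0.04, 0.02 and 0.03 in LGI 1 to 5. There HGI 1 alone is low, and the other 9 arrays lie between 0.00 and 0.06.

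**Figure D2:**
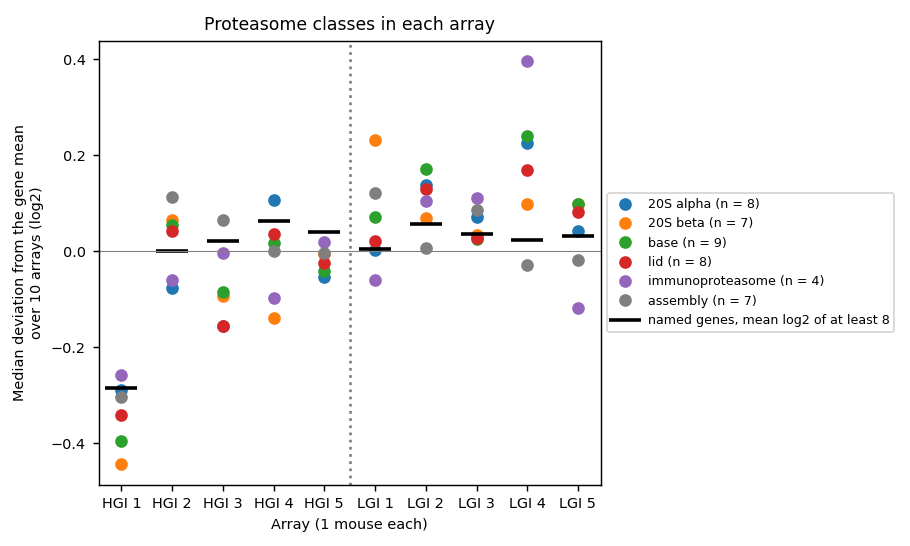
Median deviation of each proteasome class from the gene means over 10 arrays (log2, y axis) in each array (x axis, 1 mouse each), with black dashes for the 2949 bright named genes. Every class shown is lowest in HGI 1, the base stands at -0.40 there, and the immunoproteasome stands highest in LGI 4 at 0.40.

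Of the 8 alpha genes, 8 lay below 0, with a median of -0.22. Psma7, an alpha ring subunit, read 9.30, 9.79, 9.64, 9.78 and 9.58 log2 in HGI 1 to 5 and 9.98, 9.90, 9.80, 10.21 and 9.80 in LGI 1 to 5. All HGI arrays lie below all LGI arrays, though HGI 2 and HGI 4 come close to LGI 3 and LGI 5, and LGI 4 is the highest. The difference was -0.32 ± 0.11 (log2 difference ± SE, 95% interval -0.56 to -0.08, adjusted p = 0.501), a level 1.25-fold lower in HGI, and it was -0.17 without HGI 1 and LGI 4. The other ring subunits, Psma1 to Psma6, stood between -0.25 (Psma6) and -0.15 (Psma5), with adjusted p-values from 0.669 to 0.776. The alpha genes that were not lowest in HGI 1 were Psma4 and Psma8, both lowest in HGI 5. Psma8, the alpha subunit of the testis, was dim (mean 3.54 log2), and its -0.32 rests on that low signal.

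All 7 constitutive beta genes lay below 0, with a median of -0.22. Psmb3, a structural beta subunit, had the largest difference of the ring. It read 10.16, 10.48, 10.30, 10.62 and 10.60 log2 in HGI 1 to 5 and 10.42, 10.87, 10.66, 11.09 and 10.88 in LGI 1 to 5. The groups overlap, since LGI 1 lies below HGI 2, HGI 4 and HGI 5. The difference was -0.35 ± 0.13 (log2 difference ± SE, 95% interval -0.63 to -0.07, adjusted p = 0.535), and -0.21 without HGI 1 and LGI 4.

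The cutting subunits of the ring are Psmb5, Psmb6 and Psmb7, of chymotrypsin-like, caspase-like and trypsin-like activity. Psmb6 read 9.46, 10.04, 9.82, 9.88 and 9.97 log2 in HGI 1 to 5 and 10.08, 10.07, 10.09, 10.26 and 10.10 in LGI 1 to 5. Its groups do not overlap, and 4 of the LGI arrays lie between 10.07 and 10.10. The difference was -0.28 ± 0.11 (log2 difference ± SE, 95% interval -0.51 to -0.05, adjusted p = 0.537), and -0.15 without HGI 1 and LGI 4.

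Psmb5, the target of proteasome inhibitor drugs such as bortezomib, read 9.10, 9.60, 9.50, 9.35 and 9.60 log2 in HGI 1 to 5 and 9.81, 9.60, 9.57, 9.64 and 9.64 in LGI 1 to 5. HGI 2 and HGI 5 lie within the LGI range. The difference was -0.22 ± 0.10 (log2 difference ± SE, 95% interval -0.44 to 0.00, adjusted p = 0.666). For Psmb7 the arrays read 10.51, 11.01, 10.76, 10.71 and 10.76 in HGI 1 to 5 and 11.16, 10.93, 10.92, 10.91 and 10.88 in LGI 1 to 5. HGI 2 exceeds 4 of the LGI arrays, and LGI 1 is the highest. The difference was -0.21 ± 0.10 (log2 difference ± SE, 95% interval -0.42 to 0.00, adjusted p = 0.671). The structural subunits Psmb1, Psmb2 and Psmb4 stood at -0.26, -0.16 and -0.16 (adjusted p = 0.570, 0.896 and 0.810), and at -0.19, -0.04 and -0.07 without HGI 1. Psmb2, Psmb5 and Psmb7 were highest in LGI 1, whereas Psmb1, Psmb3 and Psmb6 were highest in LGI 4.

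All 9 base genes lay below 0, with a median of -0.21 that was -0.12 without HGI 1. Psmc4, 1 of the 6 ATPases Psmc1 to Psmc6 that make up the unfolding ring, read 8.25, 8.72, 8.50, 8.63 and 8.67 log2 in HGI 1 to 5 and 8.91, 8.86, 8.71, 8.99 and 8.87 in LGI 1 to 5. The groups overlap only in that HGI 2 lies just above LGI 3. The difference was -0.31 ± 0.10 (log2 difference ± SE, 95% interval -0.52 to -0.10, adjusted p = 0.451), a level 1.24-fold lower in HGI, and -0.21 without HGI 1 and LGI 4.

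Another ATPase, Psmc3, read 9.49, 9.91, 9.80, 9.77 and 9.70 log2 in HGI 1 to 5 and 9.94, 10.05, 9.94, 10.11 and 10.01 in LGI 1 to 5. All HGI arrays lie below all LGI arrays, and the LGI arrays keep between 9.94 and 10.11. The difference was -0.28 ± 0.09 (log2 difference ± SE, 95% interval -0.46 to -0.09, adjusted p = 0.449), and -0.19 without both arrays. The ATPases Psmc1, Psmc2, Psmc5 and Psmc6 stood at -0.16, -0.21, -0.14 and -0.14, and without HGI 1 at -0.06, -0.16, -0.06 and -0.07. Of these Psmc5 stood at 0.00 without HGI 1 and LGI 4. The scaffold subunits Psmd1 and Psmd2, which carry the ring, stood at -0.17 and -0.22, and at -0.09 and -0.12 without HGI 1. Psmd4, the ubiquitin receptor also called Rpn10, stood at -0.26 (95% interval -0.46 to -0.05, adjusted p = 0.537).

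In the lid 7 of 8 genes lay below 0, with a median of -0.19. Psmd14, the metalloprotease also called Rpn11 that cuts ubiquitin off the substrate, had the lowest difference of all 49 members. It read 8.61, 8.91, 8.82, 9.07 and 8.79 log2 in HGI 1 to 5 and 8.96, 9.32, 9.04, 9.53 and 9.20 in LGI 1 to 5. The groups overlap only through HGI 4, which lies above LGI 1 and LGI 3. The difference was -0.37 ± 0.12 (log2 difference ± SE, 95% interval -0.62 to -0.12, adjusted p = 0.447), a level 1.29-fold lower in HGI. Leaving out HGI 1 gave -0.31, leaving out LGI 4 gave -0.29, and leaving out both gave -0.23.

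Psmd13, a lid scaffold subunit, read 8.15, 8.49, 8.39, 8.56 and 8.56 log2 in HGI 1 to 5 and 8.59, 8.68, 8.58, 9.01 and 8.75 in LGI 1 to 5. No HGI array reaches the LGI range, HGI 4 and LGI 3 being the nearest. The difference was -0.29 ± 0.11 (log2 difference ± SE, 95% interval -0.52 to -0.06, adjusted p = 0.533). Psmd6 is a further scaffold subunit, with 9.52, 9.79, 9.69, 9.89 and 9.79 log2 in HGI 1 to 5 and 9.92, 9.97, 9.89, 9.99 and 9.92 in LGI 1 to 5. The groups do not overlap, though HGI 4 lies only just below LGI 3. The difference was -0.21 ± 0.08 (log2 difference ± SE, 95% interval -0.38 to -0.03, adjusted p = 0.578).

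Psmd8, the subunit also called Rpn12, was the only lid gene above 0. It read 9.57, 10.05, 9.99, 9.87 and 10.08 log2 in HGI 1 to 5 and 10.02, 9.83, 9.93, 9.57 and 9.84 in LGI 1 to 5. HGI 1 and LGI 4 are the lowest of their groups and level with each other, so LGI 4 stands at the other end here than in Psmd14. The difference was 0.07 ± 0.11 (log2 difference ± SE, 95% interval -0.17 to 0.32, adjusted p = 0.937), and it was 0.16 without HGI 1, 0.01 without LGI 4 and 0.09 with neither. The remaining lid genes Psmd3, Psmd7, Psmd11 and Psmd12 stood at -0.18, -0.22, -0.13 and -0.14, and without HGI 1 at -0.11, -0.14, -0.08 and -0.08.

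**Figure D3:**
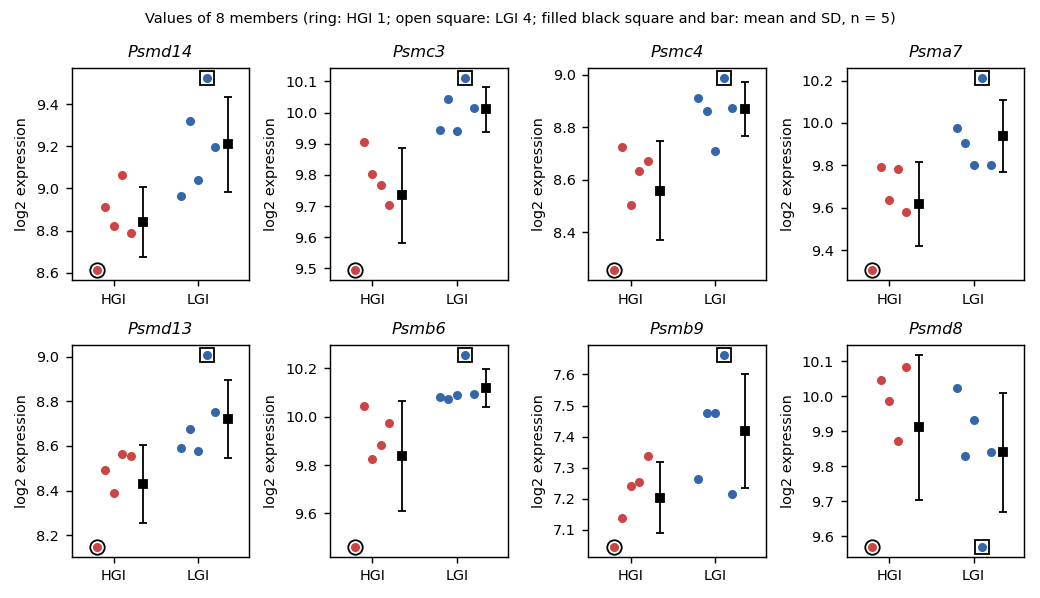
Log2 expression (y axis of each panel) of 8 members in HGI and LGI, with 1 point per array, a ring around HGI 1, an open square around LGI 4, and the mean and SD of 5 arrays in black. HGI 1 is the lowest array in 7 of the 8 panels and level with LGI 4 in Psmd8, and LGI 4 is the highest in all panels but that of Psmd8.

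Promoter sequences are shown for 4 members that differ in their values: Psmd14 with the lowest difference, the cutting subunit Psmb6, the interferon-induced activator Psme1, and Psmd8, the lid gene above 0. They come from RefSeq (GRCm38.p6), run 5′ to 3′ on the gene's strand from 250 bases before the transcription start to 50 after it, and carry matches to 3 searched motifs in capitals. Psmd14 lies at chr2:61711444-61711743 (plus strand), Psmb6 at chr11:70525107-70525406 (plus), Psme1 at chr14:55578244-55578543 (plus) and Psmd8 at chr7:29180624-29180923 (minus).
Psmd14: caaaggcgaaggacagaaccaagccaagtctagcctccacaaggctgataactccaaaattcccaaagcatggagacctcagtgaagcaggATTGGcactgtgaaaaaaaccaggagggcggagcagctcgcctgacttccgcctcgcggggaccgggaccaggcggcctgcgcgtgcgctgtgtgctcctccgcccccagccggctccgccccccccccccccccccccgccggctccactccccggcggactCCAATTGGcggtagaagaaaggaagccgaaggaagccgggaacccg
Psmb6: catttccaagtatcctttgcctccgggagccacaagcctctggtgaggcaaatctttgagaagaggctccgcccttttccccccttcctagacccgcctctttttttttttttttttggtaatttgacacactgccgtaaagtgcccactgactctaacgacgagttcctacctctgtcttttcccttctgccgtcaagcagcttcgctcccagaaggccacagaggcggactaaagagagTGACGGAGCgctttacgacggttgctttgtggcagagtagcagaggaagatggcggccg
Psme1: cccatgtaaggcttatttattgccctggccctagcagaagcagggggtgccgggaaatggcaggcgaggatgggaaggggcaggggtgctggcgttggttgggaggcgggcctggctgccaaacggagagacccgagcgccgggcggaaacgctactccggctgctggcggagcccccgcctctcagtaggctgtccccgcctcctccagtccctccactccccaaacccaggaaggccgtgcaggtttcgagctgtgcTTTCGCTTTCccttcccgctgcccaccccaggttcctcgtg
Psmd8: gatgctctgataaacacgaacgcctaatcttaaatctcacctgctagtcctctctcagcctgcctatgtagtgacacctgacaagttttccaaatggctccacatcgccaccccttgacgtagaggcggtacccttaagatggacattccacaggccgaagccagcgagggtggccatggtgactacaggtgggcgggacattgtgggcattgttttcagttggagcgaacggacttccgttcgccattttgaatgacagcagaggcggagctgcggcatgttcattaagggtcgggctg

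The motifs, searched on both strands, were TGACNNNGC, the core of the antioxidant response element that the factors NRF1 and NRF2 read, CCAAT, the CCAAT box, and the core of the interferon-stimulated response element, a pair of GAAA with any 2 bases between them. Promoters were found for 41 of the 49 members, 44 sequences in all. The antioxidant core was present in 13.6% of these (Psmb5, Psmb6, Psmc6, Psmd9, Psmd12 and Psme4), against 12.4% of all 32851 promoters. In Psmb6 the match TGACGGAGC begins 9 bases before the start. The CCAAT box was in 36.4% of member promoters against 37.4% of all, and Psmd14 holds 3 matches, of which 2 on opposite strands overlap just past the start. The interferon core was in 11.4% (Psmb3, Psmd4, Psmd9, Psme1 and Psmg4) against 3.44% of all. In Psme1 it reads TTTCGCTTTC, on the opposite strand, just past the start. Psmd8 holds none of the 3 in this window. The matches are a description of the letters and not of bound sites.

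Psmb8, Psmb9 and Psmb10 are the inducible cutting subunits of the immunoproteasome, which take the places of Psmb5, Psmb6 and Psmb7. All 3 stood below 0. Psmb9 (LMP2) read 7.04, 7.14, 7.24, 7.26 and 7.34 log2 in HGI 1 to 5 and 7.26, 7.48, 7.47, 7.66 and 7.21 in LGI 1 to 5. The groups overlap, with LGI 1 and LGI 5 inside the HGI range. The difference was -0.22 ± 0.10 (log2 difference ± SE, 95% interval -0.43 to -0.00, adjusted p = 0.658).

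Psmb8 (LMP7) read 7.91, 8.16, 8.21, 8.04 and 8.17 log2 in HGI 1 to 5 and 8.20, 8.13, 8.21, 8.60 and 7.95 in LGI 1 to 5. LGI 4 stands apart at the top and LGI 5 near the bottom, and the remaining arrays overlap. The difference was -0.12 ± 0.11 (log2 difference ± SE, 95% interval -0.36 to 0.12, adjusted p = 0.877), -0.03 without LGI 4 and 0.02 without HGI 1 and LGI 4. For Psmb10 (MECL-1) the arrays read 7.73, 8.02, 8.25, 8.06 and 8.18 in HGI 1 to 5 and 8.07, 8.18, 8.20, 8.60 and 8.12 in LGI 1 to 5. LGI 4 is again the highest, and the groups overlap. The difference was -0.19 ± 0.12 (log2 difference ± SE, 95% interval -0.44 to 0.07, adjusted p = 0.787), and -0.01 without both arrays. Psmb11, the beta subunit of the thymus, was under every array's median signal (mean 3.34 log2) and stood at -0.05.

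Each inducible subunit was then set against the constitutive one it replaces, as the difference of their log2 values in each array, centred on its mean over the arrays. Psmb8 minus Psmb5 gave 0.19, -0.06, 0.09, 0.08 and -0.04 in HGI 1 to 5 and -0.23, -0.08, 0.02, 0.34 and -0.31 in LGI 1 to 5. LGI 4 is the highest and LGI 5 the lowest, and the HGI arrays lie between them. As HGI minus LGI this pair stood at 0.10 (two-sided exact permutation p = 0.429, 0.905 after Benjamini-Hochberg adjustment over the 3 pairs). For Psmb9 minus Psmb6 it was 0.07 (two-sided exact permutation p = 0.611, 0.905 after Benjamini-Hochberg adjustment over the 3 pairs), and for Psmb10 minus Psmb7 0.02 (two-sided exact permutation p = 0.905, 0.905 after Benjamini-Hochberg adjustment over the 3 pairs). With all arrays none of the 3 differences exceeded the spread between arrays. This does not show that the balance of the subunits was the same on both diets. Without LGI 4 the 3 pairs stood at 0.20, 0.09 and 0.13 (two-sided exact permutation p = 0.0556, 0.460 and 0.357). After Benjamini-Hochberg adjustment over the 3 pairs these p-values were 0.167, 0.460 and 0.460. Psmb8 minus Psmb5 ranged from 0.04 to 0.20 without 1 array.

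Psme1, a subunit of the PA28 cap that interferon induces, read 8.91, 9.39, 9.48, 9.34 and 9.34 log2 in HGI 1 to 5 and 9.42, 9.44, 9.58, 9.84 and 9.38 in LGI 1 to 5. HGI 1 is far below and LGI 4 far above the other 8 arrays, which overlap. The difference was -0.24 ± 0.12 (log2 difference ± SE, 95% interval -0.49 to 0.02, adjusted p = 0.703), and -0.06 without both arrays. In the list of interferon and antigen presentation genes 0 of 24 measured genes passed in either direction by limma, and 0 had an unadjusted p under 0.05, with a median of -0.01 and 13 below 0. LGI 4 was highest in 10 of these 24, as it was in Psmb8, Psmb9, Psmb10 and Psme1, where it was highest at 12.9% of all probe sets. The list's median was 0.05 with 8 below 0 without HGI 1, and 0.00 with 10 below 0 without LGI 4. Tap1, the peptide transporter gene that lies between Psmb9 and Psmb8, stood at -0.01 (95% interval -0.36 to 0.34, adjusted p = 0.993), and at 0.12 without LGI 4. Irf1, an interferon-induced activator of these genes, stood at -0.24 (95% interval -0.53 to 0.05, adjusted p = 0.747), and at -0.10 without LGI 4. B2m, the light chain of the class I molecules, stood at 0.11.

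Immune cells hold much of the immunoproteasome of a tissue, so their markers are given beside it. Of the 10 Kupffer cell and macrophage markers, 10 lay above 0 and 0 passed by limma (1 at an unadjusted p under 0.05). Their median was 0.29, opposite in sign to the immunoproteasome genes. All of these markers but Adgre1 were highest in the same array, HGI 5. The part of that 1 mouse in their common sign was not tested. The summed level of these markers ranged from 11.33 to 12.12 log2 in HGI and from 11.06 to 11.82 in LGI. Of the 10 measured T, B and NK cell markers, 6 lay above 0 and 0 passed by limma (0 at an unadjusted p under 0.05). Of these 3 were under every array's median signal, and the sums ranged from 7.90 to 8.39 in HGI and from 7.92 to 8.23 in LGI. Of 9 endothelial markers 8 lay above 0 and 0 passed by limma (2 at an unadjusted p under 0.05), with sums from 10.28 to 10.83 in HGI and from 10.05 to 10.63 in LGI, and the furthest, Stab2, stood at 0.76 (95% interval 0.38 to 1.15, adjusted p = 0.217). Of 6 erythroid markers 5 lay above 0 and 0 passed by limma (2 at an unadjusted p under 0.05), with sums from 9.16 to 10.42 in HGI and from 8.16 to 9.52 in LGI. Their median was 0.09, and 3 of them were under every array's median signal. Ermap, Epb42 and Klf1 stood at 0.06, 0.10 and 0.08, and Rhag at -0.06. The furthest of the 6 were Slc4a1, the anion exchanger of red cells, at 2.25 (95% interval 1.42 to 3.07, adjusted p = 0.0625) with no overlap between the diets, and Alas2, the heme synthesis enzyme of red cells, at 1.34 (95% interval 0.62 to 2.06, adjusted p = 0.262). The single markers of this paragraph were named after their values were seen. The part of these cells in the values of the proteasome genes was not tested.

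The other activators and the inhibitor lay close to 0, and the signs of Psme3 and Psme4 turned with 1 array. Psme4, the PA200 cap, stood at -0.05 (95% interval -0.27 to 0.17, adjusted p = 0.954), but above 0 without HGI 1 (0.01) or without LGI 4 (0.004). Psmf1 (PI31), known as an inhibitor of the core in vitro, read 7.54, 7.89, 7.83, 7.76 and 7.70 log2 in HGI 1 to 5 and 8.02, 7.78, 7.84, 7.64 and 7.78 in LGI 1 to 5. The groups overlap widely. The difference was -0.07 ± 0.09 (log2 difference ± SE, 95% interval -0.27 to 0.13, adjusted p = 0.926), and -0.02 without HGI 1. Psme3, the nuclear PA28 gamma cap, stood at -0.05 (95% interval -0.29 to 0.19, adjusted p = 0.961) at its brightest probe set, and at 0.03 without HGI 1.

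The probe sets of Psme3 disagreed. At the next brightest (the dimmer of the 2 with a mean of 6 log2 or more) it read 6.74, 6.71, 6.83, 7.20 and 7.19 log2 in HGI 1 to 5 and 6.80, 6.67, 6.39, 6.59 and 6.48 in LGI 1 to 5. HGI 3, HGI 4 and HGI 5 lie above all LGI arrays, while HGI 1 and HGI 2 lie just below LGI 1. The difference there was 0.35 ± 0.12 (log2 difference ± SE, 95% interval 0.09 to 0.61, adjusted p = 0.497), the only one of the 103 member probe sets higher in HGI at an unadjusted p under 0.05 by limma.

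Assembly factors had mixed signs, with 5 of 7 below 0 and a median of -0.11, which was -0.03 without HGI 1. Psmg1 and Psmg2, partners that start the alpha ring, stood at -0.11 and 0.09. Psmg2 read 7.30, 7.81, 7.57, 7.69 and 7.44 log2 in HGI 1 to 5 and 7.76, 7.52, 7.57, 7.34 and 7.16 in LGI 1 to 5. LGI 5 is the lowest and HGI 2 the highest, and the groups overlap. The difference was 0.09 ± 0.12 (log2 difference ± SE, 95% interval -0.18 to 0.36, adjusted p = 0.923), the highest of all members with all arrays. It was 0.01 without LGI 5 and 0.16 without HGI 1 or LGI 1, and without HGI 1 Psmd8 was level with it.

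Psmg3 and Psmg4, the second pair of alpha ring chaperones, stood at -0.12 and -0.18. Psmg4 read 6.54, 7.21, 7.15, 7.06 and 7.01 log2 in HGI 1 to 5 and 7.33, 6.94, 7.15, 7.41 and 7.07 in LGI 1 to 5. HGI 1 lies apart below the other arrays, which overlap. The difference was -0.18 ± 0.13 (log2 difference ± SE, 95% interval -0.46 to 0.10, adjusted p = 0.816), and -0.01 without HGI 1 and LGI 4.

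The chaperones of the base are Psmd5, Psmd9 and Psmd10 (gankyrin). Psmd10 read 6.26, 6.58, 6.32, 6.57 and 6.50 log2 in HGI 1 to 5 and 6.43, 6.35, 6.53, 6.42 and 6.33 in LGI 1 to 5. The LGI arrays lie within the HGI range. The difference was 0.04 ± 0.09 (log2 difference ± SE, 95% interval -0.15 to 0.22, adjusted p = 0.963), and 0.08 without HGI 1. Psmd5 stood at -0.14 and Psmd9 at -0.02 (adjusted p = 0.832 and 0.990), and without HGI 1 they stood at -0.05 and 0.06. Without HGI 1 Psmg1 and Psmg3 stood at -0.05 and -0.03. Pomp, the factor that matures the beta ring and has no Psm symbol, stood at -0.20 (95% interval -0.39 to -0.01, adjusted p = 0.630).

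A difference between the classes was not tested. The single PA28 gene stood at -0.24 and the 2 genes that are no subunits had a median of -0.10. The medians of the other classes run from -0.22 in the alpha genes, -0.22 in the beta genes, -0.21 in the base and -0.19 in the lid, through -0.15 in the immunoproteasome genes and -0.11 in the assembly factors, to -0.05 in the 3 other activators and inhibitor. Without HGI 1 and LGI 4 they were -0.14, -0.14, -0.09, -0.10, -0.06, -0.04 and 0.02 in the same order. The immunoproteasome medians include the dim Psmb11. Among genes with a mean of at least 6 log2, which leaves it out, that median was -0.19 with all arrays, level with the lid. Without HGI 1 and LGI 4, Psmb8, Psmb9 and Psmb10 stood at 0.02, -0.11 and -0.01. Mean level goes with the class: the core, base and lid genes except Psma8 had means of 8.26 log2 or more, while the 12 members under 8 log2 had a median of -0.09, against -0.21 for those above.

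**Figure D4:**
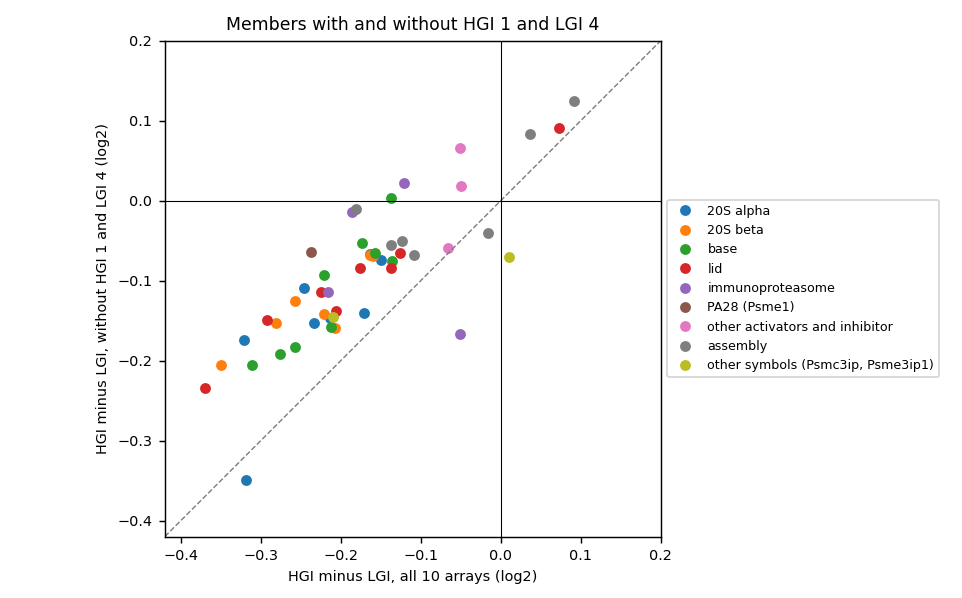
Difference between the diets (HGI minus LGI, log2) of the 49 members with all 10 arrays (x axis) and without HGI 1 and LGI 4 (y axis), coloured by class, with the line of equal values dashed. Most points lie above the dashed line, nearer to 0, and 42 of 49 lie below 0 without these arrays.

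The prefix rule also took in Psmc3ip, a partner of meiotic recombination proteins, and Psme3ip1, which binds the Psme3 cap. Neither is a proteasome subunit. Psme3ip1 read 7.30, 7.38, 7.47, 7.35 and 7.46 log2 in HGI 1 to 5 and 7.56, 7.62, 7.51, 7.76 and 7.56 in LGI 1 to 5. The groups do not overlap, and the nearest arrays are HGI 3 and LGI 3. The difference was -0.21 ± 0.08 (log2 difference ± SE, 95% interval -0.38 to -0.04, adjusted p = 0.533). Psmc3ip stood at 0.01. Without these genes 44 of 47 members lay below 0, and the median was -0.18.

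A second probe set bore on 15 members, those with at least 2 probe sets of a mean log2 of 6 or more. In 13 of these all such probe sets lay below 0, among them Psma7 (-0.32 and -0.31), Psmc4 (-0.31 and -0.31), Psmd13 (-0.29 and -0.29) and the 4 of Psmd11. In Psmg2 both lay above 0, and in Psme3 the signs were mixed. The dimmer of the bright probe sets of Psmc2 stood at -0.28 with the smallest adjusted p of all 103, 0.433. In all 59 of 65 bright member probe sets lay below 0. With dim probe sets counted too, 15 members held both signs. Those above 0 in members otherwise below it stood at up to 0.09 in Psma1 and at 0.08 in Psma5, 0.03 in Psmb1, 0.03 in Psmc1, 0.16 in Psmc2, 0.01 in Psmc6, 0.01 in Psmd2, 0.26 in Psmd9, 0.12 in Psmd11, 0.36 in Psmd13, 0.14 in Psme4 and 0.08 in Psmg3. Below 0 stood a dim probe set of Psmc3ip (-0.01) and of Psmg2 (-0.00). The probe sets used for Psma6, Psmc2, Psmd11 and Psme4 are of a kind that can also bind other transcripts.

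No gene around the proteasome passed the test either. Of the 38 listed, 29 had a probe set with that 1 symbol, and 0 passed in either direction by limma. Their median was -0.07, with 20 below 0 and 4 lower at an unadjusted p under 0.05 by limma. Of all probe sets 55.8% lay below 0 and 4.78% were lower on that rule. Of the named genes with a mean of at least 8 log2 these shares were 64.2% and 12.8%. HGI 1 was the lowest array in 22 of the 29, and without it 17 lay below 0 with a median of -0.07. Among 10 partners bound to the proteasome 7 lay below 0, led by Pomp. The lid subunit Sem1 stood at -0.16 and the scaffold Ecpas at -0.16, and without HGI 1 at -0.09 and -0.08. The ubiquitin proteases Usp14 and Uchl5 stood at 0.01 and -0.05, with both signs turned without HGI 1 (-0.09 and 0.09). All 6 genes of p97, the ATPase that extracts ubiquitinated proteins from membranes and complexes, and its cofactors lay below 0, with a median of -0.19. HGI 1 was the lowest array in all 6, and without it they still lay below 0, with a median of -0.13. Of these, Vcp (p97 itself) stood at -0.19, Nploc4 at -0.23, Ufd1 at -0.20 and Faf1 at -0.26 (95% interval -0.49 to -0.03, adjusted p = 0.589). Without HGI 1 Vcp, Nploc4, Ufd1 and Faf1 stood at -0.11, -0.12, -0.14 and -0.18. Of the 4 shuttle receptors, which carry ubiquitinated proteins to the proteasome, Rad23b stood at -0.15 and the 3 ubiquilins between -0.04 and 0.04. Without HGI 1 Rad23b stood at -0.07 and the ubiquilins between 0.00 and 0.12.

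The genes listed for transcription control of the proteasome showed no common direction. Nfe2l1, which encodes the factor NRF1 that raises proteasome genes when the particle is blocked, stood at -0.05 (95% interval -0.36 to 0.26, adjusted p = 0.969), and at 0.06 without HGI 1. Nfe2l2, which encodes NRF2, stood at 0.01, and at 0.11 without HGI 1. Ngly1, the enzyme that activates NRF1 by removing its sugars, stood at -0.19, and Mafg, a small Maf partner of both factors, at -0.45 (95% interval -0.81 to -0.08, adjusted p = 0.549). Without HGI 1 Ngly1 and Mafg stood at -0.13 and -0.29. The rest of the list, Syvn1, Sel1l, Maff and Mafk, stood at 0.10, 0.09, 0.08 and -0.07. The 8 genes of this list, not all of them transcription factors, had a median of -0.02, with 4 below 0. Without HGI 1 the median was 0.08, with 3 below 0.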

How the data were processed

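The submitters' processing notes name RMA and R 2.6.1, and the authors deposited 1 log2 value for each probe set and array, a scale read from the values. RMA usually brings all arrays to a shared distribution, which hides a difference common to most genes, yet the deposited arrays differ in spread (SD from 2.16 to 2.31 log2). Symbols came from the platform annotation, 34945 probe sets having 1 symbol, of which 34741 matched an ID of the RefSeq gene table (GRCm38.p6). All 45037 probe sets that are not Affymetrix controls were tested by limma 3.58.1 under R 4.3.3 with no covariates and no filter, with Benjamini-Hochberg adjustment and a threshold of 0.05. Adjusted p-values and intervals are from this fit. Subunit pairs were compared in Python 3.11.15 by two-sided exact permutation over the 252 arrangements of the arrays, with a smallest possible p of 0.00794. The code was tested on simulated data with changes of 2-fold and 4-fold, which does not show how it finds changes as small as those of the members.

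The members, classes and lists were chosen with earlier results of these data known. Values in every array are given for the member of the smallest p in each class, the 6 of the smallest p, the 3 highest and 3 lowest differences, and the cutting subunits and Psme1, by rule. Others, such as Psmd6, were added after their values were seen. The labels give 1 mouse per array, and 5 arrays per diet limit the precision. Samples that share a number were not treated as pairs: the correlations of same-numbered arrays over 11472 probe sets lay between -0.13 and 0.04. Alternatives were 2 filters on dim signal, renewed quantile normalization, median centring, trended robust variance, array weights, 1 or all probe sets per gene, a replicate block, an unmoderated test and leaving out arrays. Values of the other gene lists without HGI 1 or LGI 4 were added after seeing the data.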

Additional observations from a re-analysis of the deposited data

Results flagged for a closer look

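In 62 groups of 5 values that were checked, 6 held an array far from the other 4. Chance gives about 5% of groups where these are independent. The groups here come from the same 10 arrays and are not independent. LGI 4 stood apart at the top in Psmb10 (8.60 log2, next 8.20) and in Psmb6 (10.26, next 10.10). LGI 1 stood apart at the top in Psmb5 (9.81, next 9.64) and Psmb7 (11.16, next 10.93). HGI 1 stood apart at the bottom in Psme1 (8.91, next 9.34) and in the median deviation of the assembly factors (-0.30, next -0.0034).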

How the results depend on the processing

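No member passed the threshold under any alternative run, with the smallest member adjusted p between 0.238 (replicate block) and 0.676 (without LGI 5). By limma 12 members had an unadjusted p under 0.05 in the main fit. In the alternatives this count ran from 3 (without HGI 1 and LGI 4) to 18 (without HGI 2 or HGI 4). The member median stayed below 0 under every alternative, and between -0.21 and -0.11 when 1 array was left out. With the replicate block it was -0.18, with 15 members at an unadjusted p under 0.05 and 33 probe sets past the threshold in all. The count of all probe sets past the threshold was 29 (17 higher and 12 lower), 63 after quantile normalization, 17 (13 higher and 4 lower) after median centring, 64 with array weights, 58 without HGI 1 and LGI 4, 1 in the unmoderated test, 3397 without adjustment and 5 to 49 without 1 array (lowest without LGI 2, LGI 3 or LGI 5, highest without HGI 3, 7 without HGI 5 and 15 without HGI 4). The Psmb10 minus Psmb7 change turned to -0.013 after quantile normalization, was 0.15 without HGI 1 and LGI 4 and ranged from -0.069 to 0.13 without 1 array. Psmb8 turned to 0.022 without HGI 1 and LGI 4 and ranged from -0.19 to -0.026 without 1 array. The other 360 alternative values of the 19 members with all arrays given by rule kept their sign. The cause was not tested.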
